A study of Mus musculus with 8 samples.

Results

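The LIM homeobox genes encode transcription factors that carry 2 LIM domains, which bind other proteins, and a homeodomain, which binds DNA. In the embryo they set the identity of cell groups in the neural tube, eye, limb bud, kidney primordium, heart and pituitary, often in combination. Their LIM domains bind the cofactor Ldb1, and LIM-only proteins compete for the same cofactor. 8 genes of the family were described here, Lhx1, Lhx2, Lhx3, Lhx5, Lhx9, Lmx1a, Lmx1b and Isl1, out of 20145 genes with a symbol on the array. They were chosen by name, with every probe whose RefSeq accession belonged to them, which gave 11 probes. All 8 genes, with all 11 probes, passed the filter on dim probes (well above background on at least 4 of 8 arrays), as did 14631 named genes in all.

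Total RNA was taken from whole mouse embryos on gestational day 9. The mice were of the CD-1 stock, which is outbred. The dams had received 400 mg/kg hydroxyurea, an inhibitor of ribonucleotide reductase and so of DNA synthesis, or saline by intraperitoneal injection 3 h earlier. There were 4 hydroxyurea and 4 saline samples, and no genotype differed between them. The labels give neither the litter of a sample nor whether embryos were pooled, so p-values measure only the spread between these samples, which may in part be technical. The question was which members of the family differed in RNA level between the groups 3 h after exposure.

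Each array held 55681 probes, of which between 48.7% and 62.3% of spots were well above background, and the 75th percentile of the signal lay between 249.4 and 516.3. The number of arrays limits the precision. Each slide held 2 arrays of each group. Markers of the tissues of a whole embryo were measured (neural progenitors 7 of 7, somite 4 of 5, heart muscle 6 of 6, neural crest 5 of 5, primitive erythroid cells 5 of 5). Markers of yolk sac endoderm (6 of 6), trophoblast (3 of 5) and decidua (4 of 4) were measured as well. They varied between arrays within both groups, and their mean levels also differed between the groups. The summed level of the yolk sac markers ranged from 4.21 to 7.92 on the log2 scale in saline and from 3.97 to 6.38 in hydroxyurea, with saline 2 at the top. That of the decidua markers ranged from 2.64 to 3.46 in saline and from 3.17 to 6.23 in hydroxyurea, with hydroxyurea 3 at the top. Trophoblast markers ranged from 1.64 to 5.06 in saline and from 3.3 to 5.2 in hydroxyurea. The means in saline and hydroxyurea were 5.87 and 5.19 for yolk sac, 3.07 and 4.39 for trophoblast, and 3.02 and 4.24 for decidua. By limma 0 genes of these lists were called. The part of these markers in the members' values was not tested.

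Lhx1 and Lmx1b were lower in hydroxyurea embryos, and the other 6 members did not pass the test. 2 of 8 members were thus called lower by limma at an adjusted p under 0.05, against 3.4% of all 23121 features tested, and 0 of 8 were called higher, against 2.78%. By limma, 2 of the 8 had an unadjusted p under 0.05, the same pair. The share of all features at that threshold was not taken, so counts at an unadjusted p, here and for the lists below, are a description. The 4 hydroxyurea arrays lay wholly below the 4 saline arrays for Lhx1 and Lmx1b (2 of 8, against 7.63% of all features) and wholly above them for 0 of 8 (against 7.85%). The log2 difference, hydroxyurea minus saline, was below 0 in 7 of 8 members, beside 45.9% of all features. It was below 0 in 4 of 8 with median centring, in 6 of 8 with quantile normalization and in 7 of 8 with normexp. Of the 7, Lhx2 (-0.05, SE 0.18), Lmx1a (-0.03, SE 0.19) and Lhx3 (-0.0046, SE 0.28) lay close to 0. The members' median was -0.16 and their range -1.1 to 0.47, beside a median of 0.04 over all features. Where a gene had several probes, the brightest stood for it. Levels are given as the log2 signal minus the array's 75th percentile, so that 0 is that percentile, and a level of 1 probe was not set against that of another. In whole embryos, fewer cells of a type and less RNA per cell cannot be told apart.

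**Figure D1:**
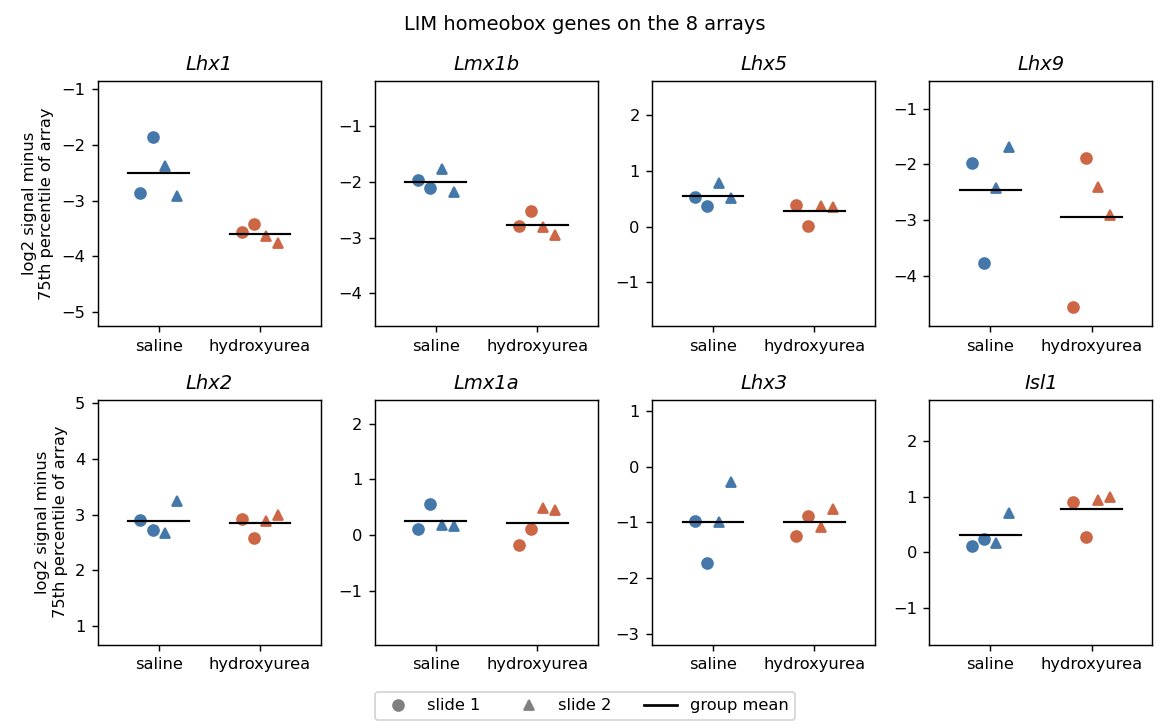
Level of the 8 LIM homeobox genes on each array, as log2 signal minus the array's 75th percentile, for each gene's brightest probe; symbols mark the slide and lines the group means, and every panel spans the same range. The hydroxyurea arrays of Lhx1 (-3.77 to -3.42) and Lmx1b (-2.96 to -2.53) lie below all saline arrays (-2.92 to -1.86 and -2.18 to -1.76), while the groups overlap in the other 6 panels.

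Lhx1 (NM_008498, chromosome 11) is needed for head formation and for the nephric duct that arises from intermediate mesoderm. Its level in saline 1 to 4 was -2.86, -1.86, -2.38 and -2.92. In hydroxyurea 1 to 4 it was -3.57, -3.42, -3.64 and -3.77. The highest hydroxyurea array lay below the lowest saline array, and the saline arrays were spread more widely (SD 0.49, n = 4) than the hydroxyurea arrays (SD 0.15, n = 4). The mean fell by 1.1 on the log2 scale (SE 0.24, 95% interval -1.63 to -0.56), to 46.8% of saline (limma, adjusted p = 0.03). Within the slides the difference was -1.14 and -1.05.

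The Lhx1 signal was dim. Its processed signal ran from 40.4 to 141.9 in saline and from 20 to 39.4 in hydroxyurea, and the probe was well above background on 4 of 4 saline and 3 of 4 hydroxyurea arrays, with hydroxyurea 3 the exception. With normexp background correction the difference was -0.41 (adjusted p = 0.18), and over all alternatives it ran from -1.23 to -0.41 with adjusted p from 0.014 to 0.48. The call was lost without hydroxyurea 1 (adjusted p = 0.079), hydroxyurea 3 (0.062), hydroxyurea 4 (0.096) or saline 3 (0.083). The saline array with the highest Lhx1 level, saline 2, also had the highest yolk sac markers (7.92), and without it the Lhx1 difference was -0.88 (SE 0.19). Saline 4, with the lowest Lhx1 level in saline, had the next highest yolk sac level in saline (5.89). Hydroxyurea 1, at 6.38, was above saline 1, 3 and 4 in yolk sac markers and below them in Lhx1. The part of those markers in the result was not tested.

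Lmx1b (NM_010725, chromosome 2) patterns the dorsal side of the limb bud and maintains the organiser at the midbrain-hindbrain boundary. Its level in saline 1 to 4 was -1.96, -2.1, -1.76 and -2.18. In hydroxyurea 1 to 4 it was -2.8, -2.53, -2.81 and -2.96. The groups did not overlap and had a like spread (SD 0.19 in saline and 0.18 in hydroxyurea, n = 4 each). The mean fell by 0.77 on the log2 scale (SE 0.16, 95% interval -1.13 to -0.41), to 58.5% of saline (limma, adjusted p = 0.024). All 8 arrays were well above background, and the difference was -0.63 on slide 1 and -0.92 on slide 2. The Lmx1b signal was dim as well, with a processed signal from 67.1 to 120 in saline and from 35.4 to 73.1 in hydroxyurea. Before scaling the groups thus overlapped.

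A further Lmx1b probe also separated the groups, but narrowly, with -3.02 the highest hydroxyurea and -2.99 the lowest saline value. The probe was well above background on 4 of 4 saline and 3 of 4 hydroxyurea arrays, with hydroxyurea 3 the exception. It read -2.99, -2.43, -2.54 and -2.99 in saline 1 to 4, and -3.28, -3.02, -3.64 and -3.68 in hydroxyurea 1 to 4. Its difference of -0.67 (SE 0.21) did not pass when every probe was tested as its own feature (limma, adjusted p = 0.096). Of the family's 17 probes, the 1 in the authors' deposited table of 1346 probes was the probe that stood for Lmx1b, and the values of the authors' deposited table gave a difference of -0.78. With normexp the Lmx1b difference was -0.38 (adjusted p = 0.18), and over all alternatives it ran from -0.92 to -0.38 with adjusted p from 0.0063 to 0.63. The call was lost without any 1 of hydroxyurea 1, 3 or 4 or saline 1, 2 or 3, with adjusted p from 0.056 to 0.087.

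**Figure D2:**
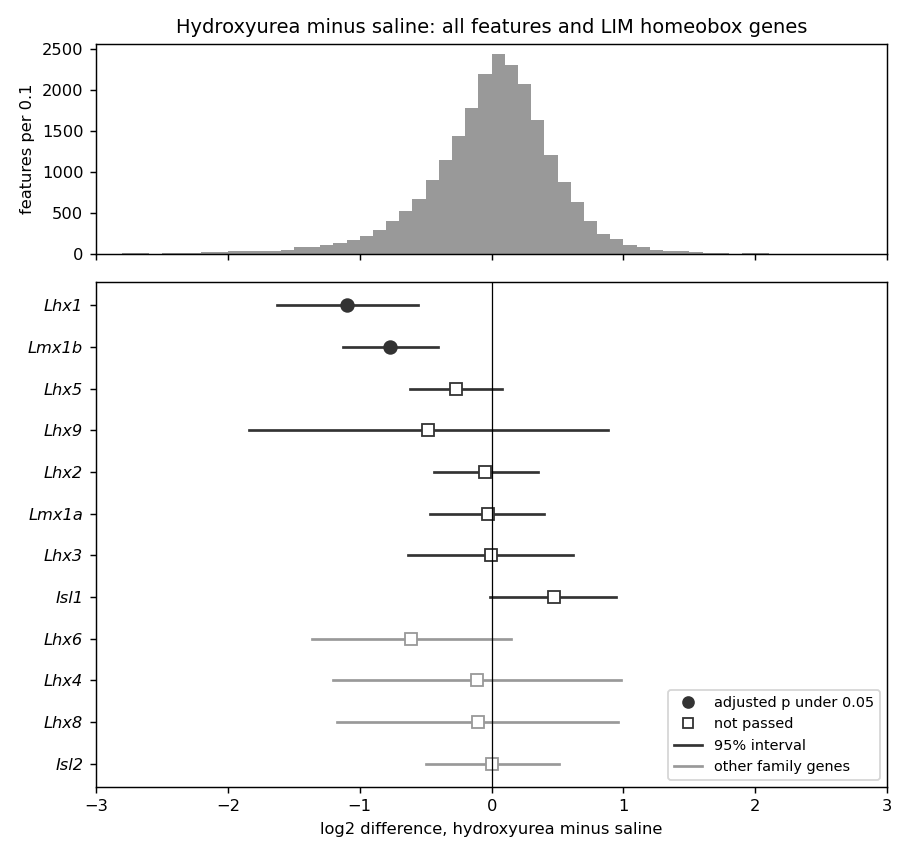
Log2 difference, hydroxyurea minus saline, of all 23121 features (top, histogram) and of the 12 LIM homeobox genes with their 95% intervals (bottom; 4 arrays per group). The intervals of Lhx1 (-1.63 to -0.56) and Lmx1b (-1.13 to -0.41) lie below 0, and the histogram has its median at 0.04.

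Isl1 (NM_021459, chromosome 13) marks motor neurons, sensory neurons and the second heart field, the progenitors that extend the heart tube. With the main scaling it was the member with a positive difference. Its level in saline 1 to 4 was 0.12, 0.25, 0.17 and 0.71. In hydroxyurea 1 to 4 it was 0.9, 0.28, 0.94 and 1. All hydroxyurea arrays but hydroxyurea 2 lay above every saline array. The difference of 0.47 (SE 0.21, 95% interval -0.01 to 0.94) did not pass (limma, adjusted p = 0.21). It was 0.4 on slide 1 and 0.53 on slide 2.

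Isl1 was the member with replicate spots, 10 per array, and the SD over those spots on the log2 scale was between 0.058 and 0.23. Without hydroxyurea 2 the difference was 0.63 (limma adjusted p = 0.044), and with weights for the arrays it was 0.62 (limma adjusted p = 0.039). In these settings 1973 and 2032 of 23121 features were called higher, against 642 in the main analysis. Among heart muscle markers limma called 1 of 6 higher, beside 2.78% of all features. It was Myh7, the beta heavy chain of cardiac myosin (0.63, SE 0.14, adjusted p = 0.032). Of the 6 markers 5 had a difference above 0 and 1, Myl7, below it (-0.16), with a median of 0.2. The summed level of those markers was 7.93 to 8.38 in saline and 8.27 to 8.71 in hydroxyurea, and its part in the Isl1 values was not tested.

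The stretches upstream of the start of these 3 genes are shown because they are the members whose values stood furthest apart between the groups relative to their errors. They are read from RefSeq promoter windows of build GRCm38.p6, 5′ to 3′ on the strand of the gene, here the minus strand for each. For Lmx1b the 140 bases upstream of every annotated start are given. Capitals mark CCAAT, the letters of the CCAAT box, and TGACGT, the core of the cyclic AMP response element, on either strand.
Lhx1, chr11:84525535-84525784: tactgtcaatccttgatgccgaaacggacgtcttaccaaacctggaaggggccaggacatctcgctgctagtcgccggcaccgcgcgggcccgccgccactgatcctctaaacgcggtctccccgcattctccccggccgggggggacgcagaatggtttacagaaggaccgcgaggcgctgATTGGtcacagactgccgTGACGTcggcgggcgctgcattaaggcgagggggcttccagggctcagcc
Lmx1b, chr2:33641209-33641348: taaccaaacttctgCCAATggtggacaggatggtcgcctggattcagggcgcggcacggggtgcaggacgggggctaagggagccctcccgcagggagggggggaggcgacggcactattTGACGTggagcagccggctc
Isl1, chr13:116309689-116309938: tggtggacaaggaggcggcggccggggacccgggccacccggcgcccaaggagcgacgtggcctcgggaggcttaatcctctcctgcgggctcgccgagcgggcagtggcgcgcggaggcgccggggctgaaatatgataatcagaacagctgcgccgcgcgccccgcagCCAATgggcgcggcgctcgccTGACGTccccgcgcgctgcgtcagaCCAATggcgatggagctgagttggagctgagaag
In the Lhx1 stretch the CCAAT match is on the opposite strand and so reads ATTGG. No match overlapped another.

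7 of the 8 members had promoter windows in the RefSeq table, 9 windows of 250 bases in all. CCAAT stood in 4 of the 9, beside 33.8% of all 32851 promoter windows, and TGACGT in 3 of the 9, beside 6.5%. The windows of Lhx1, Lmx1b and Isl1 held both motifs, beside 2.2% of all windows. Of these genes, Lhx1 and Lmx1b were lower in hydroxyurea, and Isl1 had a positive difference that did not pass. TATAAA, the TATA box, stood in 1 window (Lhx3), beside 12.4% of all, and TAATTA, a core of many homeodomain sites, in 0, beside 4.8%. The motifs were chosen after the sequences were read, so these shares are a description. GC content was 64.8% in the Lhx1 window, 65.2% in the Lmx1b window and 71.2% in the Isl1 window, beside a median of 52.4% over all windows.

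Lhx5 (NM_008499, chromosome 5), the close relative of Lhx1 that acts in forebrain and hippocampus, had a smaller difference. Its level was 0.53, 0.37, 0.79 and 0.51 in saline 1 to 4. It was 0.38, 0.02, 0.37 and 0.35 in hydroxyurea 1 to 4. The groups overlapped narrowly, at the lowest saline and the highest hydroxyurea arrays. The difference of -0.27 (SE 0.16, 95% interval -0.62 to 0.08) did not pass (limma, adjusted p = 0.32).

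Lhx2 (NM_010710, chromosome 2), which is required for the eye and forebrain, read 2.91, 2.73, 2.66 and 3.25 in saline 1 to 4. It read 2.92, 2.57, 2.88 and 3 in hydroxyurea 1 to 4, with hydroxyurea 2 below the saline range and the others within it. The difference was -0.05 (SE 0.18, adjusted p = 0.9 by limma), and its 95% interval, -0.44 to 0.35, bounds what these arrays allow.

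Lhx9 (chromosome 1), the relative of Lhx2 that acts in limb, gonad and brain, was the member measured least precisely. The probe that stood for it (NM_001042577) read -1.97, -3.77, -2.43 and -1.69 in saline 1 to 4. It read -4.57, -1.89, -2.41 and -2.91 in hydroxyurea 1 to 4. The groups overlapped over most of their ranges. The difference was -0.48 (SE 0.61, 95% interval -1.84 to 0.88, limma adjusted p = 0.66), and without hydroxyurea 1 it was 0.06.

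The other Lhx9 probes gave other values on the same arrays. A probe to NM_001025565 had a difference of -0.67 (SE 0.79, adjusted p = 0.64 over all probes by limma), with 0.29 on slide 1 and -1.64 on slide 2. A further probe to NM_001042577 had a difference of -1.51 (SE 0.46, adjusted p = 0.083 over all probes by limma). On that probe the groups did not overlap, from -3.66 to -2.45 in saline and from -6.12 to -3.99 in hydroxyurea, but it was well above background on 2 of 4 hydroxyurea arrays. The sign was the same for all 3 probes, but single low arrays weighed on it. On the NM_001025565 probe hydroxyurea 3 read -5.76 and was not well above background. Hydroxyurea 1, 2 and 4 read -3.06, -2.34 and -1.94 on it, within the saline range of -3.64 to -1.54. The difference of that probe without hydroxyurea 3 was not taken. For the probe that stood for Lhx9 the difference was 0.06 without hydroxyurea 1.

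**Figure D3:**
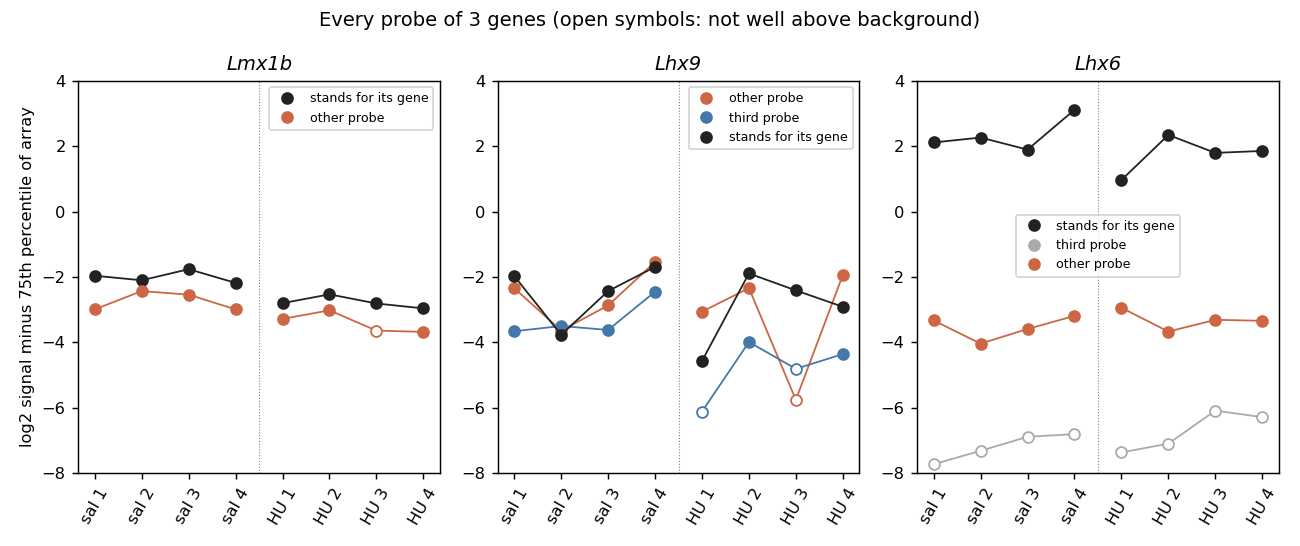
Every probe of Lmx1b, Lhx9 and Lhx6 on each array (sal, saline; HU, hydroxyurea), as log2 signal minus the array's 75th percentile; black marks the probe that stood for the gene and open symbols arrays where a probe was not well above background. Both Lmx1b probes are lower on all hydroxyurea arrays than on any saline array. The Lhx9 probe that stood for its gene is lowest on hydroxyurea 1 (-4.57) and another on hydroxyurea 3 (-5.76, not well above background).

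Lmx1a (NM_033652, chromosome 1), the relative of Lmx1b that specifies the roof plate of the neural tube, had a difference of -0.03 (SE 0.19, 95% interval -0.47 to 0.4, limma adjusted p = 0.94). Its level was 0.11, 0.56, 0.18 and 0.16 in saline 1 to 4, and -0.17, 0.11, 0.49 and 0.45 in hydroxyurea 1 to 4. The slides gave opposite signs, -0.37 on slide 1 and 0.3 on slide 2.

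Lhx3 (NM_001039653, chromosome 2), which specifies motor neurons and the pituitary primordium, read -0.97, -1.72, -0.99 and -0.28 in saline 1 to 4. It read -1.25, -0.88, -1.09 and -0.76 in hydroxyurea 1 to 4, inside the saline range throughout. The group means were both -0.99 (95% interval of the difference -0.63 to 0.62, limma adjusted p = 0.99). The saline arrays at the ends of the Lhx3 range, saline 4 and saline 2, were also those with the highest (4.91) and lowest (3.68) summed level of early neuron markers in saline. In hydroxyurea the lowest Lhx3 level and the lowest early neuron level (3.64) were both on hydroxyurea 1. The highest were on different arrays, hydroxyurea 4 for Lhx3 and hydroxyurea 3 for the early neuron markers (4.34). The part of those markers was not tested.

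The 3 pairs of close relatives were compared by the difference of their log2 values on each array, with a two-sided exact permutation test over the 8 arrays, whose smallest possible p is 0.0286. The hydroxyurea difference of Lhx1 minus that of Lhx5 was -0.83, and the groups did not overlap (exact p = 0.0286, adjusted over 3 pairs 0.0858). With normexp that value was -0.17 (exact permutation p = 0.4), and without saline 2 it was -0.55. The difference of Lmx1a exceeded that of Lmx1b by 0.74 (exact p = 0.0857, adjusted 0.129), with 0.26 on slide 1 and 1.21 on slide 2. When a gene's probes were averaged, it was 0.69 (exact p = 0.0286). For Lhx2 and Lhx9 the value was 0.44 (exact p = 0.629, adjusted 0.629), and without hydroxyurea 1 it was -0.13. After adjustment 0 of 3 pairs differed at 0.05, which does not show that the relatives respond alike. A single pair at the smallest possible exact p is adjusted to 0.0858, so 1 pair alone could not have passed.

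Of the 4 other family members 0 were called by limma, and 0 had an unadjusted p under 0.05. Lhx6, a gene of the jaw arch and forebrain, had a difference of -0.61 (SE 0.33, limma adjusted p = 0.29), with levels from 1.9 to 3.12 in saline and from 0.97 to 2.35 in hydroxyurea. A further Lhx6 probe gave 0.23, and the third was not well above background on any array. The differences were -0.11 (SE 0.49) for Lhx4, -0.1 (SE 0.47) for Lhx8 and 0.0049 (SE 0.23) for Isl2. Across the 12 family genes, saline 4 was the highest saline array in 8 and hydroxyurea 1 the lowest hydroxyurea array in 7.

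The cofactors of the family were all measured, 10 of 10, and 0 were called by limma in either direction, also at an unadjusted p under 0.05 (median -0.1). Lmo4, a LIM-only protein, had a difference of -0.35 (SE 0.16, limma adjusted p = 0.21), and Lmo3 one of -0.31 (adjusted p = 0.25). Ldb1, the shared cofactor, was named after its value was seen, at -0.33 (SE 0.22, adjusted p = 0.38). The groups overlapped for all 10.

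With the cofactors, the lists of tissues where the members act held 67 measured genes. By limma, 5 of these were called lower (7.46%) and 0 higher (1 at an unadjusted p under 0.05), against 3.4% and 2.78% of all features. Of all features, 45.9% had a difference below 0 with the main scaling. In the roof plate and isthmus list, where Lmx1a and Lmx1b act, 11 of 12 measured genes had a difference below 0 (median -0.38), against 10 of 12 with median centring, quantile normalization or normexp, and 1 was called lower. That gene was Wnt1, the midbrain-hindbrain signal, whose expression is maintained with the help of Lmx1b. Wnt1 went from 1.73 ± 0.14 in saline to 0.86 ± 0.27 in hydroxyurea (SD, n = 4 each), a difference of -0.87 (SE 0.17, limma adjusted p = 0.02). The call was lost without hydroxyurea 3 (adjusted p = 0.05), hydroxyurea 4 (0.073), saline 2 (0.062) or saline 3 (0.058). Pax7, a gene of the dorsal neural tube, did not pass at -0.78 (adjusted p = 0.067).

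In the intermediate mesoderm list, where Lhx1 acts, 6 of 10 genes had a difference below 0 and 4 above (median -0.07). With median centring 4 of 10 were below 0. The 1 gene called lower was Six2, a gene of nephron progenitors (-0.73, SE 0.18, limma adjusted p = 0.047). In whole embryos its value cannot be assigned to that tissue. With a block for slide or for slide row Six2 did not pass (adjusted p = 0.055 with each), nor without any single array other than hydroxyurea 2, and it passed in 8 of 21 alternatives. Pax2, a gene of the nephric duct, did not pass at -0.39 (adjusted p = 0.26). Its probe was well above background on 2 of 4 arrays in each group, and with normexp its difference was -0.01. In the eye and forebrain list, where Lhx2 acts, 7 of 10 genes had a difference below 0 (median -0.16), and 5 of 10 with median centring. The 1 gene called lower was Six3, which maintains the anterior forebrain. Six3 went from -0.36 ± 0.3 to -1.81 ± 0.31 (SD, n = 4 each), a difference of -1.46 (SE 0.21, adjusted p = 0.0057). Pax6, the eye regulator, did not pass at -0.7 (adjusted p = 0.11).

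Among motor neuron and pituitary genes, where Lhx3 and Isl1 act, 5 of 9 measured had a difference below 0 (median -0.33). By limma 0 of 9 were called, and 3 had an unadjusted p under 0.05. Neurog2, which drives neurogenesis, had a difference of -1.05 (SE 0.28, adjusted p = 0.058) and Nkx6-1, of ventral progenitors, one of -0.52 (adjusted p = 0.085). The third, Hesx1, a gene of the pituitary primordium and anterior forebrain, lay in the opposite direction at 1.37 (SE 0.46, adjusted p = 0.11), and it was named after its value was seen. In the limb bud list 9 of 13 genes had a difference below 0 (median -0.07), and 6 of 13 with median centring. The 1 gene called lower was Tbx5, the forelimb and heart regulator (-0.77, SE 0.18, limma adjusted p = 0.039). Lin28a, a repressor of let-7 maturation, did not pass at -0.99 (adjusted p = 0.053). With a block for slide (adjusted p = 0.057) or for slide row (0.052) Tbx5 did not pass, nor without any single array other than hydroxyurea 2 or 3, and it passed in 9 of 21 alternatives. In the second heart field list, where Isl1 acts, 9 of 12 genes had a difference below 0 (median -0.15), and 6 of 12 with median centring. The 2 genes called lower were Tbx5 and Hand1. Hand1, a regulator of the ventricle and of extraembryonic tissue, went from 1.26 ± 0.27 to -0.16 ± 0.38 (SD, n = 4 each), a difference of -1.42 (SE 0.22, adjusted p = 0.0083).

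**Figure D4:**
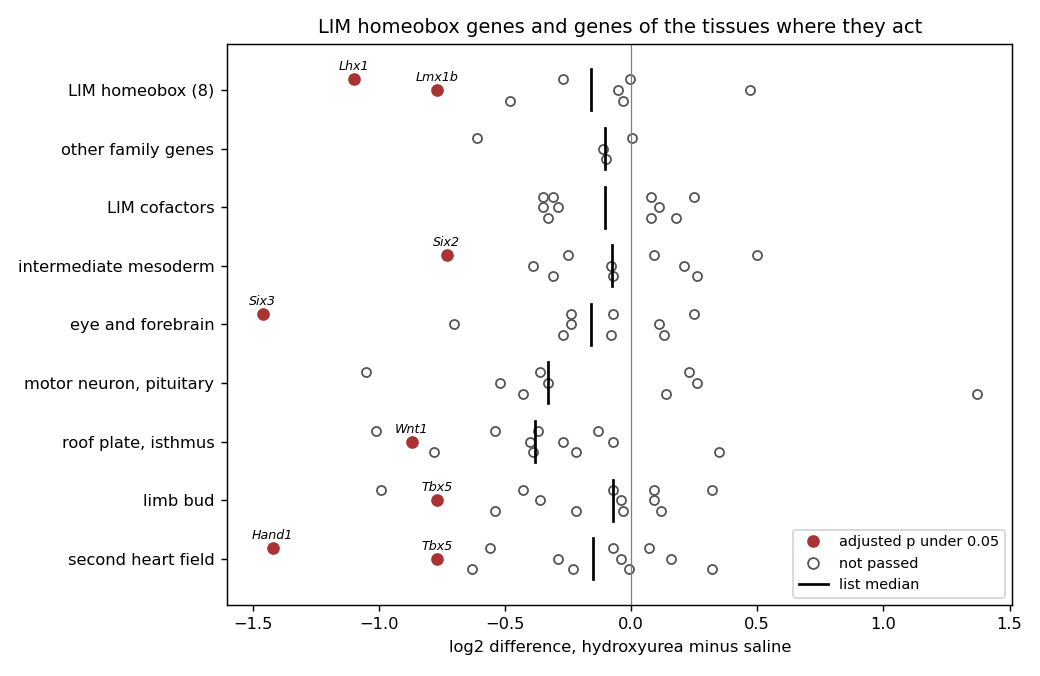
Log2 difference, hydroxyurea minus saline, of each measured gene of the LIM homeobox family, its cofactors and the tissues where the 8 members act, with list medians as vertical lines (4 arrays per group); filled points passed an adjusted p of 0.05. All filled points lie below 0, from -0.73 (Six2) to -1.46 (Six3), and a gene in several lists, such as Tbx5, is drawn in each.

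Few markers of other cell types were called. Among neural progenitor markers 0 of 7, early neuron markers 0 of 7 and somite markers 0 of 4 measured were called by limma, with 2, 0 and 1 at an unadjusted p under 0.05. In neural crest limma called 1 of 5 lower, Sox10 (-0.78, SE 0.15, adjusted p = 0.017), beside 3.4% of all features. Of the 5, 3 had a difference below 0 and 2 above it. The summed level of endothelial markers did not overlap between groups, at 4.25 to 4.98 in saline and 3.13 to 4.15 in hydroxyurea, and 0 of the 5 genes were called by limma (3 at an unadjusted p under 0.05). The 5 genes did not go one way. Kdr had a difference of -1.16 with its hydroxyurea arrays wholly below saline, and Cdh5 one of -0.76 with overlap. Emcn had one of 0.64 with its hydroxyurea arrays wholly above saline, and Pecam1 and Tek were at -0.05 each. The part of these markers in the Lhx1 and Lmx1b results was not tested.

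For the called members, the named genes with the nearest pattern over the 8 arrays were sought among 14623, by the mean absolute distance between log2 values centred on the saline mean. Nearest to Lhx1 were F9, coagulation factor IX (distance 0.12), Mark2, a kinase of microtubule-binding proteins (0.14), and Tst, a mitochondrial sulfurtransferase (0.15). Their own differences were -0.99, -1.11 and -1.12. Nearest to Lmx1b were Gabrg3, a GABA receptor subunit, Wipf2, which binds the actin regulator WASP, and Kif4, a mitotic kinesin, each at a distance of 0.09. Their differences were -0.87, -0.76 and -0.68. Nearness was defined by these values, so they carry no test.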

How the data were processed

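Total RNA of 8 whole-embryo samples was measured on 1-colour Agilent arrays. Per the submitters' processing notes, signals came from Agilent Feature Extraction 11.5.1.1, and the deposited intensity values are its processed signal, background-subtracted and not scaled between arrays. The authors' deposited table holds log2 values, which comparison with the scanner files showed to be centred on each probe's median, with array medians from -0.51 to 0.41. For its normalization and test, the sources used here give nothing.

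The log2 processed signal, averaged over a probe's spots without outlier spots (151 to 315 per array), was scaled by subtracting the array's 75th percentile. Probes well above background on at least 4 of 8 arrays were kept, and the probe with the highest mean stood for its gene. Hydroxyurea and saline arrays were compared in R 4.3.3 by limma 3.58.1, using lmFit and eBayes without covariates, two-sided, with Benjamini-Hochberg adjustment over 23121 features. Of these steps, only the limma fit was tested on simulated data. Accessions took symbols from a RefSeq table of GRCm38.p6, used for names and chromosomes, and promoters from its promoter windows. Some file headers name mm9, and no coordinate was converted.

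Members, lists and tests were chosen with earlier results of these data known. Named genes were all members, the 4 other family genes, the 2 genes with the lowest p of each of 7 lists, and the 3 nearest to each called member. Markers, Ldb1 and Hesx1 were named after their values were seen. Alternatives were normexp with an offset of 50, quantile normalization, median centring, other filters and probe rules, slide or row blocks, each slide alone, trend and robust moderation, array weights and each array left out. Normexp was planned on the mean signal but run on the median signal column of the scanner files.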

Additional observations from a re-analysis of the deposited data

Results flagged for a closer look

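Among 24 groups of 4 arrays (12 family genes, each in both conditions), 3 held an array whose gap to the nearest other, as a ratio to the group's range, exceeded the 95% critical value of Dixon's test. Chance flags about 1 in 20 groups. Isl1 was at 0.28 in hydroxyurea 2, with the other hydroxyurea arrays from 0.9 to 1 (ratio 0.86). Lhx5 was at 0.02 in the same array, with the others from 0.35 to 0.38 (ratio 0.9). Lmx1a was at 0.56 in saline 2, with the other saline arrays from 0.11 to 0.18 (ratio 0.84).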

How the results depend on the processing

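The count of members called lower was 2 in the main analysis. It was 0 with normexp, median centring, no filter on dim probes, slide 1 alone and slide 2 alone, and 1 with only probes well above background on all 8 arrays, which leaves out Lhx1. Of all 23121 features, 727 were called lower with normexp, 596 with median centring, 30 on slide 1 alone and 3 on slide 2 alone. With no filter 346 of 37134 were called lower, and 746 of 19431 with the filter on all 8 arrays. Leaving out single arrays gave member counts from 0 to 2. The member count was 0 without hydroxyurea 1, hydroxyurea 3, hydroxyurea 4 or saline 3. In those 4 settings 355, 572, 311 and 357 of 23121 features were called lower, against 787 in the main analysis. The causes of the other changes were not tested, and the normexp setting changed the signal column, the background correction and the offset together. The count called higher was 0, and 1 (Isl1) with array weights and without hydroxyurea 2, so leaving out single arrays gave 0 to 1. In those 2 settings 2032 and 1973 of 23121 features were called higher, against 642 in the main analysis. Lhx1 kept its direction in 20 of 20 alternatives and passed in 11, and Lmx1b kept it in 21 of 21 and passed in 10.

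The members' median difference of -0.16 was -0.31 on slide 1 alone and ran from -0.29 to -0.01 with single arrays left out, the upper end without hydroxyurea 1. It was -0.04 with median centring and -0.05 with only probes well above background on all 8 arrays. Median centring moved the median of all features from 0.04 to 0.16. In the companion lists, 5 genes were lower in the main analysis, 2 with median centring or no filter, 3 with a block for slide or for slide row, 0 on slide 1 alone or slide 2 alone, 8 with the filter on all 8 arrays or with trend and robust moderation, and 13 with array weights. With single arrays left out the count lower ran from 2 to 8 and the count higher from 0 to 1. The pair Lhx1 and Lhx5 gave -0.17 with normexp. The pair Lmx1a and Lmx1b gave 0.26 on slide 1, 1.21 on slide 2 and 0.69 with a gene's probes averaged. No called member or called companion gene changed sign. The markers Sox10 and Myh7 were not run under the alternatives. Calls over all features ranged from 0 higher and 3 lower on slide 2 alone to 2032 and 2075 with array weights. No paired analysis was possible because the labels number no replicates and do not say which samples share an experiment.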
